A study of Mus musculus with 50 samples.

Results

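The genes described here are 36 stress chaperone and unfolded protein response genes, chosen by name and read in the livers of backcross mice. They were looked up by symbol in a table of 12185 genes, in which 35 of the 36 were measured and 34 had a mean normalized value of at least 1. Hspa1a was not analysed here, and Atf3 was measured but fell below that mean. Values are CPM, reads of a gene over a scaled read total of its library, so that 1 read was worth the same for every gene of a library.

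The livers came from 50 RNA-seq libraries of male mice that formed a single group, with no treatment and no control group. The mice were offspring of (B6.A4 x B6)F1 and (B6 x B6.A6)F1 parents, so that A/J and C57BL/6J alleles differed between mice on chromosomes 4 and 6 alone while the rest of the genome was C57BL/6J; the labels call them F2 and adult, and the study calls them N2, aged 5 weeks and fasted overnight. Genotypes were not used here, and p-values measure the spread between these libraries. Library numbers fell into 2 sets, 28 libraries numbered 1 to 30 and 22 numbered 31 to 59, and 2 animal numbers each stood on 2 libraries. The correlation of the libraries within those pairs was 0.107 and -0.118 (Pearson, log2 deviations from the gene means), against a median of -0.0313 over all pairs, so the shared numbers did not mark libraries that looked alike.

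Secreted and membrane proteins fold in the endoplasmic reticulum (ER), where chaperones hold unfolded chains, lectins and disulfide isomerases complete the fold, and failed products are passed back to the cytosol and degraded. When unfolded protein builds up, the sensors ATF6, IRE1 (gene Ern1) and PERK (gene Eif2ak3) start the unfolded protein response, in which ATF6 and spliced XBP1 raise chaperone and degradation genes while PERK favours translation of ATF4 and, through it, CHOP (gene Ddit3). The cytosol has a separate heat shock response, driven by HSF1, that raises HSP70 and HSP90 chaperones and their partners. The liver makes most plasma proteins and so carries a heavy folding load.

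The 300-base windows around the RefSeq start sites (250 bases before and 50 after, GRCm38.p6) were read for 4 short motifs on both strands, because the members fell into ER and heat shock groups that these motifs are known for. A window was found for 30 members. The ER stress response element, spelled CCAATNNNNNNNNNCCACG, was in the windows of 9 of them, against 37 of 27025 genes with a window, or 0.137%. These 9 were the chaperones Hspa5, Hsp90b1, Calr, Canx, Dnajc3 and Creld2, the isomerase Pdia6, and the degradation genes Syvn1 and Derl3. The 10 matches follow, each with 5 bases on either side, 5′ to 3′ on the strand of the motif and with the motif in capitals.
Hspa5, chr2:34772020-34772048 (+): cttcaCCAATCGGAGGCCTCCACGacggg
Hsp90b1, chr10:86705633-86705661 (-): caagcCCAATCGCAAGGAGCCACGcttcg
Hsp90b1, chr10:86705528-86705556 (+): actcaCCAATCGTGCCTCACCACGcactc
Calr, chr8:84847070-84847098 (+): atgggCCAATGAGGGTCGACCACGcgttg
Canx, chr11:50325795-50325823 (-): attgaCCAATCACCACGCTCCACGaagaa
Dnajc3, chr14:118937822-118937850 (+): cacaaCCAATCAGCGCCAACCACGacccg
Creld2, chr15:88819515-88819543 (-): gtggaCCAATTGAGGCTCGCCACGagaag
Pdia6, chr12:17266486-17266514 (+): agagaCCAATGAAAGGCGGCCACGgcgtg
Syvn1, chr19:6046527-6046555 (+): cgcaaCCAATCGGCGGTAGCCACGggaac
Derl3, chr10:75893237-75893265 (-): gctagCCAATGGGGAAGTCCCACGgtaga
All 10 matches lay upstream of the RefSeq start site, with their outer base between position -212 (Hsp90b1) and -44 (Syvn1) from it, and 6 of the 10 read along the gene while the other 4 were on the opposite strand.

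The position of the element differed between members that shared it. In Hspa5, which encodes BiP, the ER member of the HSP70 family and the chaperone that binds the stress sensors, the match began at position -65, and in Hsp90b1, which encodes GRP94, the ER member of the HSP90 family, 2 matches lay on opposite strands, at -212 and -107. The GENCODE M21 model of Hspa5 begins farther upstream than the RefSeq start, so that its match lies inside that model, whereas the other 9 matches lie outside the GENCODE models of their genes. The 250 bases upstream of each RefSeq start are printed to show this spacing, in the direction of the gene and with the matches in capitals.
Hspa5, chr2:34771840-34772089 (+): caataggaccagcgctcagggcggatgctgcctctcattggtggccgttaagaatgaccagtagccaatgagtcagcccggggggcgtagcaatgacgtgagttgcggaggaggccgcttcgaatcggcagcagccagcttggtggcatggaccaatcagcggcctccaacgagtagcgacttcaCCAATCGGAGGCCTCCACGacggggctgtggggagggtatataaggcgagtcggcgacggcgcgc
Hsp90b1, chr10:86705445-86705694 (-): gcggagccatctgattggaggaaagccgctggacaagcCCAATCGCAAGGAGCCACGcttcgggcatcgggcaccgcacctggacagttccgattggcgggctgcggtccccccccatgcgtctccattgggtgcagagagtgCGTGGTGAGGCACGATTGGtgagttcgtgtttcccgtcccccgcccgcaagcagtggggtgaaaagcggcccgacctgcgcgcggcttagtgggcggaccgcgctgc

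The ATF4-type element TGATGNAA was in the windows of 3 members, Atf3, Herpud1 and Trib3, against 4.51% of all genes with a window. The heat shock element GAANNTTCNNGAA was in that of Hsph1 alone among the members, against 0.662%, and TGACGTGG, one form of the XBP1 element, was in none of the 30, against 0.714%. A match is a description of letters in this window, and no match says nothing of the factor. The sites of Hsph1, Trib3, Atf3 and Herpud1 follow in the same layout. Those of Atf3 and Herpud1 lay upstream of the RefSeq start site, that of Trib3 began 14 bases after it, and that of Hsph1 began 15 or 36 bases after it, depending on which of 2 listed start sites is used. Against the GENCODE M21 models, those of Trib3 and Herpud1 lay upstream of the gene and those of Atf3 and Hsph1 inside it.
Hsph1, chr5:149636283-149636305 (+): gaggaGAACTTTCCAGAAtctgc
Trib3, chr2:152344034-152344051 (+): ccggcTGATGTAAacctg
Atf3, chr1:191183431-191183448 (+): cttggTGATGCAAgtgcg
Herpud1, chr8:94386312-94386329 (-): cgggcTGATGCAAcccgc

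Counted reads ran from 11965594 to 29976557 per library, and the floor of 3 reads lay between 0.0951 and 0.259 CPM; these cover counting error only. Counting error made up a median of 2.46% of the variance of the 34 members and at most 21.7%, in Ddit3. The hepatocyte markers summed to between 71835 and 118547 CPM over 5 of 6 measured genes, whereas 1 of 8 pancreatic acinar markers (Cela1) and 3 of 5 plasma cell markers were measured, the latter summing to between 4.11 and 15.99 CPM. The correlation of the marker sums with Hspa5 ran from -0.322 (plasma cell) to 0.180 (acinar), with Hsph1 from -0.361 (cholangiocyte) to 0.177 (acinar), with hepatocytes at -0.333, and with Trib3 from -0.177 (stellate) to 0.356 (cholangiocyte), and their part in the results was not tested. In bulk tissue, fewer cells of a type and less RNA per cell cannot be told apart.

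Among the members, some chaperones were abundant while others, such as Hyou1 (11.9 CPM per kb of exon) and Hsph1 (4.42), were not, and the 3 sensors were scarce. Per kilobase of exon, the highest mean levels were those of P4hb (protein disulfide isomerase) at 315, Hspa8 (the constitutive cytosolic HSP70) at 231, Calr (the lectin chaperone calreticulin) at 181, Herpud1 (a membrane adaptor of ER-associated degradation) at 154, Hspa5 at 128 and Hsp90b1 at 115 CPM per kb. The 3 sensors were far lower, with Atf6 at 5.62, Ern1 at 3.72 and Eif2ak3 at 1.84 CPM per kb. The lowest were Hspa1b at 1.71, Derl3 at 1.38 and Atf3 at 0.343 CPM per kb, and the median of the 35 was 16.1. Neighbours such as Hspa5 and Hsp90b1, whose coefficients of variation (CV) were 26.8% and 17.5%, overlapped in their range over the livers.

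**Figure D1:**
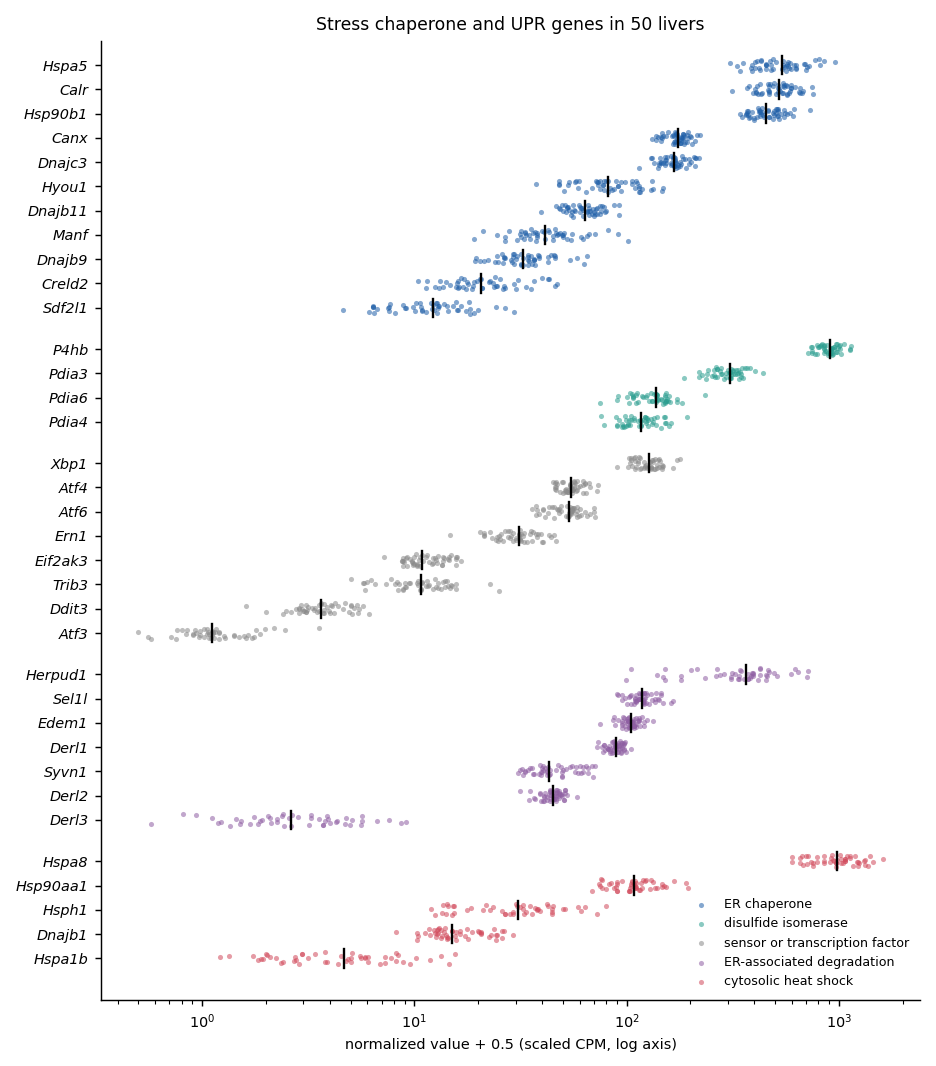
Normalized value plus 0.5 (x axis, scaled CPM, log axis) of each of the 35 measured members in each of 50 libraries, 1 point a library, with the median as a black bar and members grouped by role and ordered by mean. Derl3, Hspa1b and Herpud1 spread widely, whereas P4hb, Canx and Derl1 stay within a narrow range.

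Hspa5 (chr2:34771970-34777547, plus strand) had a value of 307.7 CPM in the lowest library, 540.1 at the median and 960.2 in the highest, a 3.12-fold range (mean 542 ± 146, SD, n = 50). Of its co-chaperones and partners, Hyou1, Manf, Creld2, Sdf2l1 and Dnajb9 were more spread out, with CVs of at least 30.6%, against 26.8% for Hspa5. Dnajb11 and Dnajc3 were less spread out, with CVs of 18.6% and 13.9%. Hyou1, the ER member of the HSP110 family and nucleotide exchange factor of BiP, ran from 36.8 over 81.3 to 147 CPM. Manf, a secreted ER stress protein that binds BiP, ran from 18.6 over 40.5 to 101 CPM. Creld2, an ER protein with isomerase activity, ran from 9.89 over 20.01 to 46.6 CPM, and Sdf2l1, which acts with the BiP co-chaperone Dnajb11, from 4.13 over 11.7 to 28.9 CPM. Library 15 was the lowest of the 50 for Hspa5, Hyou1, Manf, Creld2 and Sdf2l1, and library 30 the highest for Hspa5, Hyou1 and Manf.

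Of the remaining ER chaperones, Calr ran from 314 to 759 CPM, Hsp90b1 from 342 to 730, Dnajc3, a BiP co-chaperone that inhibits PERK, from 114.4 to 218.9, and Canx, the membrane lectin calnexin, from 131 to 222. The co-chaperones Dnajb11 and Dnajb9 had means of 63.5 ± 11.8 and 33.8 ± 10.3 CPM (SD, n = 50). Of the isomerases, P4hb had the smallest spread, with a CV of 11.2%, followed by Pdia3 (the partner of the lectins) at 16.5%, Pdia4 at 20.2% and Pdia6 at 20.4%.

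The degradation genes held both the steadiest and one of the most variable members. Derl1, a channel component, had a CV of 8.13% and a 1.45-fold range, the smallest of the 34, whereas its relative Derl3 ran from 0.0712 CPM, which was 1 read in library 15, over 2.13 to 8.59 CPM in library 44. Herpud1 ran from 99.2 over 364 to 716 CPM. Edem1 (a lectin that marks misfolded glycoproteins) had a CV of 9.92%, Derl2 11.6%, Sel1l (the adaptor of the ligase) 14.03% and Syvn1 (the ligase HRD1) 24.7%.

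Among the sensors and factors, the CVs were 12.2% for Atf4, 14.5% for Xbp1, 17.3% for Atf6, 21.4% for Eif2ak3 and 22.9% for Ern1. Trib3, a pseudokinase induced by ATF4 and CHOP, ran from 4.51 over 10.2 to 24.4 CPM, and Ddit3 from 1.10 over 3.14 to 5.61 CPM, or 14 to 107 reads. Atf3, a stress-induced factor, ran from 0 in library 51 over 0.612 to 3.05 CPM, or at most 38 reads.

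The cytosolic genes had the highest median CV of the 5 groups, at 31.6%, against 26.8% for ER chaperones. Hspa1b, the inducible HSP70, ran from 0.708 over 4.14 to 15.1 CPM, a 21.3-fold range, and Hsph1, the cytosolic HSP110, from 11.5 over 30.4 to 79.5 CPM. Dnajb1, the HSP40 partner of HSP70, ran from 7.69 to 28.8 CPM, Hsp90aa1, the inducible HSP90, from 68.1 to 193, and Hspa8 from 599 to 1617. Of the 31-base stretches in the transcripts, 67.6% of those of Hspa1b also lie in Hspa1a, 46.7% of those of Hsp90aa1 in Gm12346 and 38.6% of those of Hspa8 in Gm15459, so the counts of these genes are uncertain where reads fit several genes. For Hspa5, Hsph1 and Trib3 the share found in any other gene was at most 0.0234%.

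Read against the 200 genes nearest in mean value, 30 of the 34 members had a CV above the median of their neighbours, and 14 lay at or above the 90th percentile. All 5 cytosolic genes were among the 30, with percentiles from 87 (Hspa8) to 99.5 (Hsph1 and Hspa1b). The exceptions were Derl1 (12.5), P4hb (29), Edem1 (31) and Canx (40.5).

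Low and high values came from the same few libraries. Library 15 was the lowest of the 50 for 17 members and among the lowest 5 for 23 of 34, or 67.6%, against 19.4% of all genes; its median rank was 1 for ER chaperones and 12 for the cytosolic genes. Library 30 was among the highest 5 for 21 members (61.8%, against 11.9% of all genes), library 21 for 19 (55.9% against 19.8%), library 42 for 18 (52.9% against 10.9%), library 44 for 16 (47.1% against 23.02%) and library 40 for 13 (38.2% against 8.23%). These libraries differed in kind. Library 42 ranked high for ER chaperones (median rank 47) and cytosolic genes (49), whereas libraries 30, 21 and 44 ranked 50, 48 and 46 for ER chaperones and 33, 23 and 25 for the cytosolic genes. Library 26 was the lowest for 4 members and had a median rank of 1 for the cytosolic genes and 10 for ER chaperones. Library 15 held 13546858 counted reads, against a median of 13620584 over the libraries. It was also among the highest 5 for 16.7% of all genes. The cause of its low values was not tested.

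Members were correlated with each other across the livers. Over the 561 pairs of the 34 members, the median Pearson r of log2(value + 0.5) was 0.469, and 45.8% of pairs had an r above 0.5, against a median of -0.00200 and 2.17% over all pairs of the 11436 genes with a mean of at least 1. Within the ER chaperones the median r was 0.748 over 55 pairs, and within the 5 cytosolic genes 0.786 over 10 pairs. Between ER chaperones and cytosolic genes it was 0.420, and between isomerases and cytosolic genes 0.229. These are descriptions with no p, since the members share libraries.

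**Figure D2:**
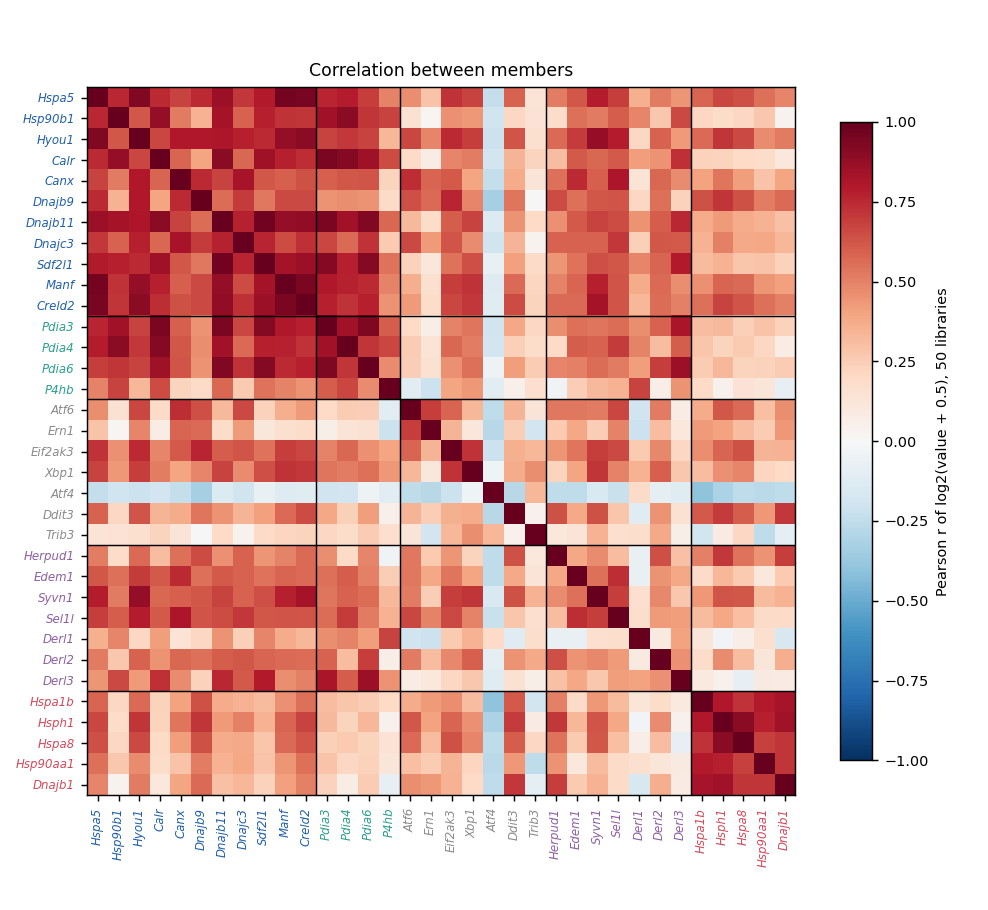
Pearson r of log2(value + 0.5) over 50 libraries for each pair of the 34 members with a mean of at least 1, ordered by role as coloured in the gene names and separated by lines (red positive, blue negative). ER chaperones and isomerases form 1 block and the 5 cytosolic genes another, and the row of Atf4 is blue for nearly all partners.

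The closest pairs were Dnajb11 with Sdf2l1 (r = 0.967), Hspa5 with Manf (0.960) and with Creld2 (0.948), and Calr with Pdia3 (0.943). Derl3, the least abundant ER gene, was closest to Pdia6 (0.857). Atf4 stood apart. Its median r with the other members was -0.200, its highest was 0.329, with Trib3, and it was the partner with the lowest r for 30 of the other 33.

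To place the members among all genes, each gene was fitted on the level of an index gene by limma with log2(value + 0.5), 2-sided, with Benjamini-Hochberg adjustment over all genes tested and a threshold of 0.05. Slopes are in log2 per log2 of the index gene. Hspa5 was chosen by name for the ER response, Hsph1 for the heat shock response and Trib3 for the ATF4 and CHOP branch. The r of Trib3 was -0.178 with the summed CPM of 39 measured genes of an ATF4 and CHOP list, and 0.040 with Ddit3. Besides targets, that list holds the kinases Eif2ak1, Eif2ak2 and Eif2ak4 and their substrate Eif2s1, which act upstream of ATF4. Abundant genes weigh most in such a sum. The fit on Trib3 is read here as one on Trib3 alone. Across all genes, 6.26% rose with Hspa5 and 5.08% fell.

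With Hspa5, 29 of 33 members rose and none fell. This took in all 10 other ER chaperones, all 4 isomerases, all 5 cytosolic genes, 6 of 7 degradation genes and 4 of 7 sensors and factors, with a median slope of 0.54 against 0.0014 over all genes. The smallest adjusted p were those of Manf (slope 1.27 ± 0.06, SE, adjusted p = 8.28e-25, limma), Creld2 (1.40 ± 0.07, 8.71e-23), Hyou1 (1.15 ± 0.07, 3.88e-19), Dnajb11 (0.61 ± 0.05, 5.3e-12), Sdf2l1 (1.24 ± 0.13, 3.67e-09) and Syvn1 (0.72 ± 0.08, 1.33e-08). A slope of 1.27 means that Manf was 2.41-fold higher for each doubling of Hspa5. The slopes of Hsp90b1 and Calr were 0.49 and 0.54, and that of P4hb was 0.21.

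The 4 members that did not pass were Derl1 (slope 0.11, adjusted p = 0.1001), Ern1 (0.25, 0.159), Atf4 (-0.11, 0.274) and Trib3 (0.18, 0.556; limma). All 29 members that passed had a positive slope within both library sets when these were fitted alone. In the 22 libraries of the second set alone, however, 8 members passed.

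Single pairs were tested by permutation in a family of 96 pairs of Hspa5, Hsph1 or Trib3 with a member, of which 60 passed after Benjamini-Hochberg adjustment. The family holds members alone, so it has no share over all genes. In the limma fit on Hspa5, 31 of 33 members had an unadjusted p under 0.05, against 3122 of 11435 genes. The r of Hspa5 with Manf was 0.960 and Spearman's rho 0.954, each with a permutation p of 1e-05, the smallest that 100000 permutations can give (adjusted 3e-05 for r). Leaving out the pair of libraries with the most extreme Hspa5 gave an r of 0.951, and the sets gave 0.969 and 0.966. With Hsp90b1 r was 0.757 (rho 0.735, permutation p = 1e-05 for both, adjusted 3e-05 for r), or 0.710 without the extreme pair, 0.852 in the first set and 0.594 in the second. With Trib3 r was 0.135 (rho 0.0977, permutation p = 0.351 and 0.501, adjusted 0.407 and 0.553).

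**Figure D3:**
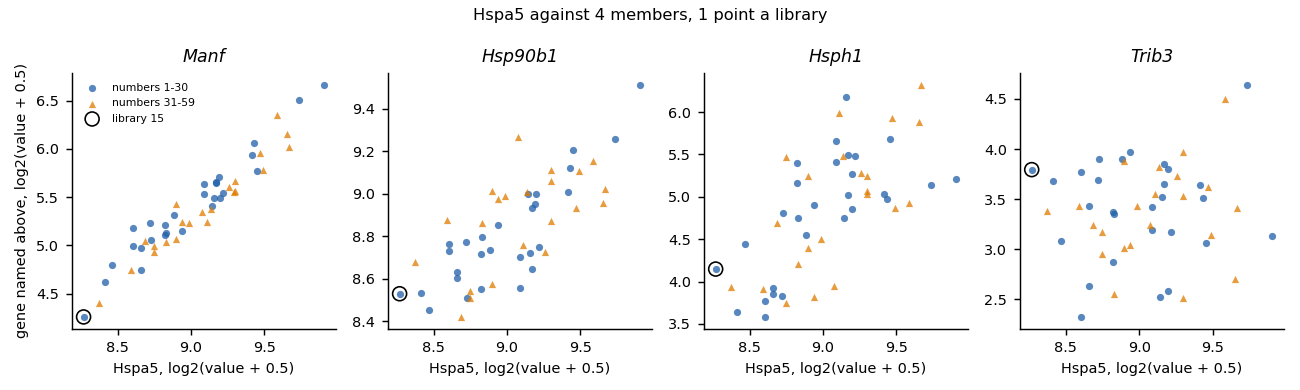
log2(value + 0.5) of Hspa5 (x axis) against that of Manf, Hsp90b1, Hsph1 and Trib3 (y axes), 1 point a library, with the library sets as circles and triangles and library 15 ringed. Manf lies close to a line, Hsp90b1 and Hsph1 scatter more widely, and Trib3 scatters across the panel (r = 0.960 for Manf and 0.135 for Trib3).

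The cytosolic gene Hsph1 (chr5:149614287-149636376, minus strand) rose with Hspa5 as well, with an r of 0.668 (rho 0.664, permutation p = 1e-05 for both, adjusted 3e-05 for r, 0.681 without the extreme pair, 0.671 and 0.669 within the sets). Fitted on Hsph1, 22 of 33 members rose and none fell, against 12.2% of all genes that rose and 12.1% that fell. The smallest adjusted p were those of Hspa8 (slope 0.45 ± 0.03, adjusted p = 2.89e-16, limma), Dnajb1 (0.50 ± 0.05, 6.81e-12), Hspa1b (1.03 ± 0.11, 3.69e-10), Hsp90aa1 (0.38 ± 0.04, 7.67e-09), Dnajb9 (0.41 ± 0.06, 2.96e-07) and Hyou1 (0.46 ± 0.06, 3.24e-07). None of the 4 isomerases passed in this fit, nor did Hsp90b1 (0.06, adjusted p = 0.351), Calr (0.08, 0.242), P4hb (0.01, 0.858) or Derl3 (0.06, 0.851, all limma). At an unadjusted p under 0.05 in limma there were 26 of 33 members, against 4094 of 11435 genes. By permutation, 25 of the 32 pairs of Hsph1 with members other than Hspa5 passed by r, 24 with a positive r. Pdia3 (r = 0.322, permutation p adjusted 0.0352) and Pdia6 (0.330, 0.0315) were among them. The negative pair was that with Atf4 (-0.318, 0.0393), which missed the threshold by rho (permutation p adjusted 0.0579). The r of Hsph1 with Hspa8 was 0.906 (rho 0.886, permutation p = 1e-05 for both, adjusted 3e-05 for r, 0.893 without the extreme pair, 0.860 and 0.951 within the sets). With Hsp90b1 it was 0.187 (rho 0.164, permutation p = 0.194 and 0.254, adjusted 0.248 and 0.320, 0.298 and 0.0308 within the sets).

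Since Hspa5 and Hsph1 rose together, both were put in a single fit, a choice made after these correlations were seen. The slope on Hspa5 then compares livers with the same Hsph1, and the reverse. With Hsph1 held, 21 of 32 members rose with Hspa5 and none fell, against 3.25% of 11434 genes that rose and 1.78% that fell. These were all 10 ER chaperones, all 4 isomerases, 5 of 7 degradation genes, Xbp1 and Eif2ak3, and none of the 4 cytosolic genes, whose slopes ran from -0.16 (Dnajb1) to 0.21 (Hspa1b). Pdia4 (0.86 ± 0.07, adjusted p = 1.09e-12), Hsp90b1 (0.74 ± 0.07, 5.53e-12) and Calr (0.78 ± 0.08, 5.8e-10; limma) now had larger slopes than on Hspa5 alone, and Manf (1.36 ± 0.07, 1.72e-20) and Creld2 (1.32 ± 0.09, 5.39e-16) stayed at the top.

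With Hspa5 held, 8 members rose with Hsph1 and 8 fell, against 9.48% and 9.92% of all genes. All 4 other cytosolic genes rose, led by Hspa8 (0.42 ± 0.04, adjusted p = 2.89e-10, limma) and Dnajb1 (0.55 ± 0.06, 5.99e-09), followed by Hspa1b (0.96 ± 0.14, 6.3e-06) and Hsp90aa1 (0.36 ± 0.06, 2.14e-05). The ER genes that rose with them were Herpud1 (0.61 ± 0.12, 0.000462), Ddit3 (0.31 ± 0.07, 0.00252), Atf6 (0.20 ± 0.05, 0.00656) and Dnajb9 (0.23 ± 0.07, 0.0111). Herpud1 and Ddit3 had no slope on Hspa5 past the threshold once Hsph1 was held (0.13 and 0.24, adjusted p = 0.804 and 0.338).

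The 8 members that fell were folding enzymes and chaperones of the ER lumen plus Derl3. They were Hsp90b1 (-0.19 ± 0.03, adjusted p = 7.1e-05, limma), Pdia4 (-0.21 ± 0.04, 7.9e-05), Calr (-0.19 ± 0.04, 0.00121), P4hb (-0.11, 0.019), Sdf2l1 (-0.26, 0.0281), Pdia3 (-0.11, 0.0372), Derl3 (-0.55, 0.0384) and Dnajb11 (-0.10, 0.046). Without Hspa5 in the fit none of these 8 fell, and their r with Hsph1 was positive, from 0.0453 (Derl3) to 0.428 (Dnajb11). All 16 members that passed had the same direction within both library sets. The count fell to 9 with animal number in the fit, the 4 cytosolic genes plus Hsp90b1, Pdia4, Calr, Sdf2l1 and Dnajb11. Within the second set it fell to 4, which were the cytosolic genes, and none of the 8 falling members passed there (Hsp90b1 adjusted p = 0.0882, Pdia4 0.105, Calr 0.157, limma). It was 17 with edgeR on whole reads and 19 without library 15.

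**Figure D4:**
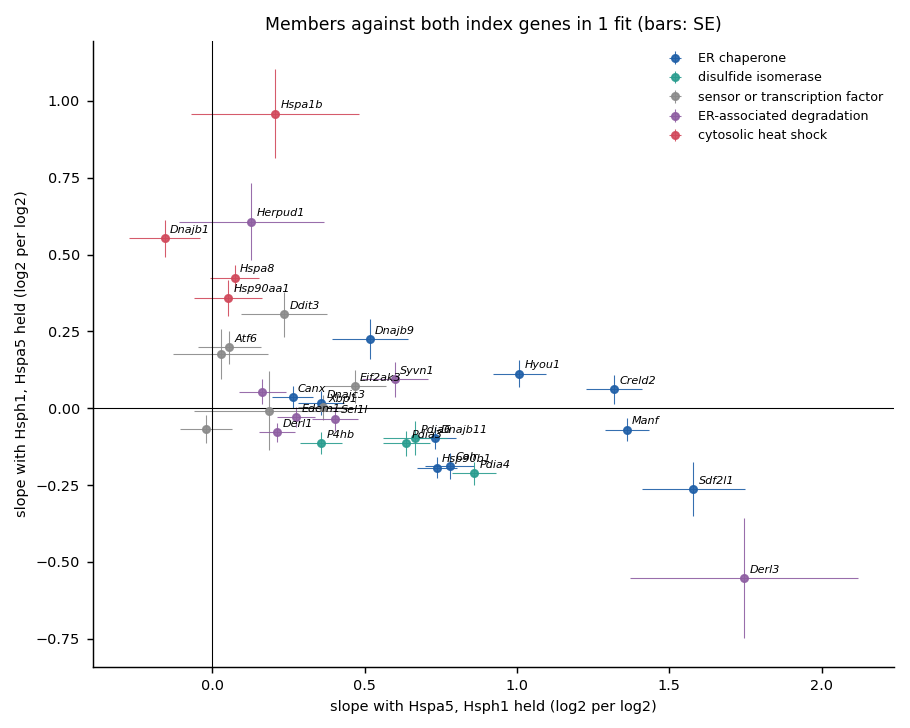
Slope of each of 32 members on Hspa5 with Hsph1 held (x axis) and on Hsph1 with Hspa5 held (y axis), in log2 per log2, with bars of 1 SE and colours by role; members that passed in either direction are named. The 4 cytosolic genes, Herpud1 and Ddit3 sit high near x = 0, while Derl3, Sdf2l1 and the isomerases lie to the right below y = 0.

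Other genes of the pathways, from lists drawn up with earlier results of these data known, were counted in the same fits. Over all genes, 6.26% rose and 5.08% fell with Hspa5, and 12.2% and 12.1% with Hsph1. With the other index gene held, these shares were 3.25% and 1.78% with Hspa5, and 9.48% and 9.92% with Hsph1. Of 55 measured genes of ER folding, export and degradation, 26 rose with Hspa5 and none fell (median slope 0.17, against 0.0014 over all genes), and with Hsph1 held it was 22 and none. Those with the smallest adjusted p were Txndc11, a thioredoxin-domain protein (0.52, adjusted p = 2.31e-07, limma), Sec23b of the COPII coat (0.39, 9.92e-06), Sec61a1 of the translocon (0.29, 3.55e-05) and Spcs2 of the signal peptidase (0.28, 9.59e-05). With Hsph1, 13 of the 55 rose, or 23.6% against 12.2% of all genes. With Hspa5 held, 3 of the 55 rose with Hsph1 and 5 fell (median slope -0.029). These were 5.45% and 9.09%, against 9.48% and 9.92% of all genes. Of 43 genes of cytosolic and mitochondrial heat shock, 23 rose with Hspa5 (median slope 0.19), but with Hsph1 held 3 did (Dnajb2, Cct3 and Tcp1). With Hsph1, 23 rose and 1 fell (median slope 0.10), led by the HSP90 co-chaperones Chordc1 (0.66, 5.15e-18) and Stip1 (0.34, 1.17e-17) and the HSP40 Dnaja1 (0.38, 1.72e-15; limma). With Hspa5 held it was 15 and 1.

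Of 37 tested genes of the ATF4 and CHOP list, 7 rose with Hspa5 and none fell (median slope 0.06), or 18.9% against 6.26% of all genes. Among the 7 were Slc7a5, an amino acid transporter (0.48, adjusted p = 0.0023), and Ddit4, an inhibitor of mTORC1 (1.16, 0.0116, both limma). With Hsph1 held, 1 of the 37 rose, Wars (0.32, adjusted p = 0.00148, limma), against 3.25% of all genes. With Hsph1, 9 rose and 4 fell, or 24.3% and 10.8%, against 12.2% and 12.1% of all genes. With Hspa5 held 1 rose, Cebpg (0.30, adjusted p = 8.16e-05, limma), and 5 fell. These were 2.70% and 13.5%, against 9.48% and 9.92% of all genes. Of 12 immediate early genes, Jun (-0.95, adjusted p = 0.0148) and Nr4a1 (-0.80, 0.0439, both limma) fell with Hspa5 and none rose (median slope -0.31). The 2 that fell were 16.7% of the 12, against 5.08% of all genes. With Hsph1, 3 of the 12 fell and none rose, or 25% against 12.1% of all genes. With Hsph1 held, none passed with Hspa5 (Jun adjusted p = 0.380, limma). With Hspa5 held, 1 fell with Hsph1, Ier2 (-0.33, adjusted p = 0.00806, limma), or 8.33% against 9.92% of all genes.

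Trib3 (chr2:152337422-152344032, minus strand) shared few calls with the members in the fit over all genes. Across all genes 4.15% rose with it and 5.72% fell, and of 33 members 1 rose, Xbp1 (0.19 ± 0.05, adjusted p = 0.0143, limma), while none fell. Xbp1 missed the threshold in either library set alone. Atf4 and Ddit3, which act upstream of Trib3, had slopes of 0.11 (adjusted p = 0.12) and 0.03 (0.889; limma) in that fit. In that fit 5 of 33 members had an unadjusted p under 0.05, against 2970 of 11435 genes (limma). The permutation family is adjusted over 96 pairs of members alone and has no share over all genes. In it, 5 of the 31 pairs of Trib3 with members other than Hspa5 and Hsph1 passed by r, all with a positive r. They were Xbp1 (r = 0.466, permutation p adjusted 0.00122), Derl2 (0.378, 0.0121), Syvn1 (0.347, 0.0237), Eif2ak3 (0.331, 0.0315) and Atf4 (0.329, 0.0332). By rho, the permutation p of Atf4 (rho 0.237, adjusted 0.153) and of Syvn1 (adjusted 0.051) missed the threshold. In the ATF4 and CHOP list 3 genes rose with Trib3 and 1 fell. Those that rose were Chac1, which degrades glutathione (1.06, adjusted p = 1.04e-06), Gdf15, a stress hormone (0.52, 0.0201), and Psph of serine synthesis (0.21, 0.026, all limma). The gene that fell was Eif2ak2, one of the listed kinases upstream of ATF4 (-0.28, adjusted p = 0.00327, limma). Of the immediate early genes 4 rose and 2 fell, with Junb (0.95, 3.4e-05), Ier2 (0.46, 0.000563) and Zfp36 (0.41, 0.0167) rising and Klf4 falling (-0.60, 0.000819; limma).

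The genes most like a member, by Pearson r over the 50 livers and 11435 genes, differed between Hspa5, Hsph1, Trib3 and Atf3. For Hspa5 they were Manf, Creld2, Hyou1, Dnajb11 and Piga (r from 0.960 to 0.794). For Hsph1 they were Stip1 (0.929), Chordc1 (0.920), Hspa8, Dnaja1 and P4ha1 (0.854), of which 1 is a member. For Trib3 they were Rab20 (0.779), Chac1 (0.727), Slc2a1, Nr1d1 and Bbc3 (0.707), none of them a member. For Atf3 the highest was Stk17b (0.598), followed by Ets2, Klf4, Rbl1 and Rab30 (0.539).

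Genes of other liver programmes were used as index genes for comparison. On Dbp, an output gene of the circadian clock, 1.22% of all genes rose and 1.38% fell, and Trib3 was the only one of 34 members that passed (0.26 ± 0.06, adjusted p = 0.00682, limma). Neither library set alone gave it past the threshold, with slopes of 0.25 and 0.27. At an unadjusted p under 0.05 in limma there were 13 of 34 members, against 2039 of 11435 genes. The median slope on Dbp was 0.071 over the members and 0.0019 over all genes. On Igfbp1, which insulin represses, 2.31% rose and 2.36% fell, and no member passed in limma or edgeR. At an unadjusted p under 0.05 in limma there were 2 of 34, against 2486 of 11435 genes, and both were among the 5 cytosolic genes (median slope 0.14). Of the listed genes, 8 of 43 of heat shock (18.6%), 6 of 37 of ATF4 and CHOP (16.2%), 1 of 55 of the ER (1.82%) and 0 of 12 immediate early genes rose with Igfbp1, and none fell. On Saa1, an acute phase gene, 0.122% rose and 0.00875% fell, and again no member passed in either tool, with 5 of 34 at an unadjusted p under 0.05 in limma, against 1157 of 11435 genes.

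The labels order the mice by animal number, and 7.49% of genes were higher and 6.73% lower with that number. Within each library set the library numbers ran in nearly the same order, so animal number and library order cannot be told apart there. Of 34 members, 4 fell and 1 rose, in log2 per 100 animal numbers. Dnajb1 fell by 0.45 ± 0.10 (SE, adjusted p = 0.0018, limma), Herpud1 by 0.60 ± 0.16 (0.0104), Hsph1 by 0.57 ± 0.18 (0.0262) and Ddit3 by 0.29 ± 0.10 (0.0491), and P4hb rose by 0.12 ± 0.04 (0.0499). Hspa5 had a slope of 0.01 ± 0.10 (adjusted p = 0.952, limma). All 5 had the same direction within both sets, and 3 passed in the first set, while in the second the smallest adjusted p among them was 0.278 (Dnajb1, limma). Ddit3 and P4hb lost the call under several alternatives, among them without library 24. Between the library sets, where 7.07% of genes were higher and 6.42% lower in the second, Canx (0.15 ± 0.05, adjusted p = 0.0182) and Atf6 (0.20 ± 0.07, 0.0388; limma) were higher and no member was lower, and Atf6 missed the threshold without library 15 (adjusted p = 0.0533).

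**Figure D5:**
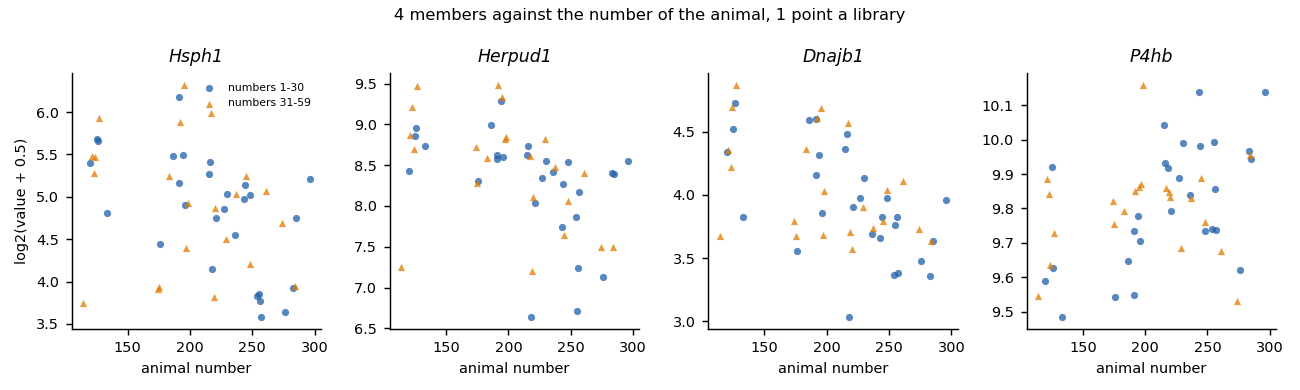
log2(value + 0.5) of Hsph1, Herpud1, Dnajb1 and P4hb (y axes) against the animal number (x axis), 1 point a library, with the library sets as circles and triangles. The first 3 genes fall and P4hb rises with the number, with wide scatter at every number.

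Chromosomes 4 and 6 are the ones that segregate in this cross, and 3 members lie on chromosome 6 and none on chromosome 4. They were Pdia4 (chr6:47796141-47813430), Eif2ak3 (chr6:70844515-70905245) and Edem1 (chr6:108828641-108859356). As a description, the median squared r of each with the genes within 5 Mb was 0.0253 (38 genes), 0.0331 (36 genes) and 0.0345 (30 genes), and with 9783 genes of autosomes that do not segregate 0.0210, 0.0268 and 0.0278. Without library 24, Pdia4 had 0.0205 within 5 Mb and 0.0210 on those autosomes. Eif2ak3 then had 0.0337 and 0.0263, and Edem1 0.0319 and 0.0276. The genes most like Pdia4 were all members and all off chromosome 6, with Calr at 0.916, Hsp90b1 at 0.904, Dnajb11 at 0.841, Pdia3 at 0.838 and Hspa5 at 0.783. Eif2ak3 was most like Creb3l2 (0.790), an ER stress transducer that also lies on chromosome 6, Dnajb9 (0.765), Fam13a (0.759), likewise on chromosome 6, Txndc11 (0.753) and Hyou1 (0.747). Creb3l2 lies 20 to 60 Mb from Eif2ak3 and Fam13a 11.9 Mb from it, and among the genes within 5 Mb the highest r was 0.485. Edem1 was most like Canx (0.745), Sel1l (0.739), Itch (0.716), Magt1 (0.711) and Mtmr4 (0.710).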

How the data were processed

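The deposited table holds, per gene and library, a normalized signal that the authors made by trimming, alignment to GRCm38.p5 with HISAT2, counting with HTSeq 0.11.1, removal of low-count genes and scaling with edgeR. Its columns sum to between 886171 and 1120647, so the values are CPM of a scaled library size. Division by the value of 1 read gave whole reads for 100% of values within 0.01 reads. Gene positions and symbols came from GENCODE M21 (8 of 12185 genes unmatched), and promoter windows from RefSeq, GRCm38.p6.

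Tests ran on log2(value + 0.5) of the 11436 genes with a mean of at least 1, with limma 3.58.1 in R 4.3.3, 2-sided, on all 50 libraries, with Benjamini-Hochberg adjustment; the index gene was left out of its own fit. The script was tested on simulated data. Alternatives included edgeR 4.0.16 on whole reads. The members and lists were chosen with earlier results of these data known. Named genes followed a rule: all members by level; per fit, at most 6 passing members with the smallest adjusted p; per list, at most 4 genes; and the 5 most alike genes of Hspa5, Hsph1, Trib3, Atf3 and members on chromosomes 4 and 6. Members printed beyond these, and the joint fits of Hspa5 and Hsph1, were chosen after their values were seen.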

Additional observations from a re-analysis of the deposited data

How the results depend on the processing

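No paired analysis was possible because the series has 1 group. None of the 7 pairs followed under the alternatives changed direction, while pairs that did not pass could, such as Hsph1 with Derl3 (r 0.0453 over all libraries and -0.202 within the second set); 116 of the 138 counts of passing members, pairs or spread stayed within 1.5 times of the reported one. The others were as follows. Members by library set (2 reported) came to 1 with counted reads as a covariate, without library 24 and without library 15. Members by animal number (5 reported) came to 3 with a pseudocount of 0.1, with no filter, with the summed share of the top 10 genes in the model, without library 24 and within the first set, and to 0 within the second set. Within the second set, members passing were 8 with Hspa5, 13 with Hsph1, 8 with Hspa5 at fixed Hsph1 and 4 with Hsph1 at fixed Hspa5; the last was 9 with animal number as a covariate. Members with Trib3 (1 reported) came to 2 with that share in the model, with edgeR and without library 15, and to 0 within each set. Members with Dbp (1 reported) came to 0 within each set, and with Igfbp1 (0 reported) 1 passed with animal number as a covariate. A set alone has fewer libraries; for the other settings the cause was not tested. Settings within sets, without library 15 and all those of the joint fits were chosen after seeing the data. Depth limits Atf3, Ddit3 and Derl3, whose median libraries held 9, 45.5 and 34.5 reads.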
